A study of Mus musculus with 7 samples.

Results

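A group of 10 genes of ceramide and barrier lipid synthesis was followed in papillomas from control (CTR) and *Nanog*-overexpressing (TG) mice: *Lass2*, *Lass3*, *Lass4*, *Lass5*, *Lass6*, *Elovl4*, *Degs2*, *Ugcg*, *Abca12* and *Acer1*. They were selected by symbol from 23284 gene symbols, with their measured TG and CTR FPKM values already known, so their differences between the groups are given here as a description and carry no test. All 10 were found in every file with an intact estimate and passed the filter of a mean of 0.5 FPKM over the papillomas. FPKM scales the fragments of a gene to the length of its transcripts and to the size of the library.

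Papillomas are benign epidermal tumors, induced here by the carcinogen DMBA followed by the tumor promoter TPA on the back skin of age-matched C57Bl/6 mice. The series holds 1 RNA library for each of 7 papillomas, 4 from CTR and 3 from TG mice, and every papilloma came from another mouse. Papillomas were collected when the protocol finished or earlier, at the humane endpoint, which in the paper many TG mice reached through large carcinomas. The collection time of each papilloma is not given in the sources used here and may differ between the genotypes. Both genotypes carried the *tetO-Nanog* transgene and drank doxycycline (2 mg/ml) during the whole carcinogenesis protocol, and only TG mice also carried *K5-rtTA*, a doxycycline-dependent activator under the keratin 5 promoter. The activator is thus driven in basal keratinocytes, while the RNA came from whole papillomas, so that fewer cells of a type and less RNA per cell cannot be told apart in any value below.

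Ceramides are made by joining a fatty acid to a sphingoid base, a step carried out by the ceramide synthases (the Cers proteins, whose genes the files list under the older *Lass* symbols). In the outer epidermis, ceramides with ultra-long fatty acids are glucosylated, loaded into lamellar bodies and secreted, and after removal of the glucose they form the lipid sheets that keep water in the body. Ceramidases split ceramides again into a fatty acid and sphingosine. Inherited loss of *ABCA12*, *CERS3* or *ELOVL4* function in people leads to scaling skin disease.

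The transgene was checked first. *Nanog* read 2.70, 2.84, 12.7 and 3.34 FPKM in CTR 1 to CTR 4 and 36.9, 57.4 and 66.9 FPKM in TG 1 to TG 3. All TG papillomas lay above all CTR papillomas, and CTR 3 held the highest control level. The implied number of reads on genes ranged from 10077008 to 15711400, with CTR 3 and TG 1 deeper than the others, and between 63 and 14052 reads stood behind each value of the 10 genes. TG 3 stood apart: its median FPKM over genes was 1.14, against 0.539 to 0.673 in the others, and its correlation with other papillomas across genes lay between 0.903 and 0.937. In TG 3, 7 of 7 fibroblast markers and 7 of 7 skeletal muscle markers were at their highest, with summed levels of 694 and 632 FPKM. The same sums were 75.8 to 135 and 1.50 to 2.98 FPKM in CTR papillomas, and 90.1 to 95.1 and 2.22 to 4.92 FPKM in the other TG papillomas. The adipocyte genes *Plin1* and *Cidec* were at 0 in every papilloma other than TG 3. The papillomas were keratinocyte tissue by their defining markers, with *Krt14* at 4717 FPKM or more in each. Values are therefore also given without TG 3.

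The promoters of 4 of the genes are shown. *Lass4* was the only gene of the 10 whose groups did not overlap. *Lass3*, *Elovl4* and *Abca12* were abundant genes of the barrier lipid route and, like *Ugcg*, which is not shown, were lowest in CTR 2. Each line holds the 250 bases before the RefSeq start on GRCm38.p6, read 5′ to 3′ on the strand of the gene. Capitals mark matches to the GC box GGGCGG or the nuclear receptor half-site AGGTCA on either strand.
Lass4 (chr8:4493155-4493404, plus strand): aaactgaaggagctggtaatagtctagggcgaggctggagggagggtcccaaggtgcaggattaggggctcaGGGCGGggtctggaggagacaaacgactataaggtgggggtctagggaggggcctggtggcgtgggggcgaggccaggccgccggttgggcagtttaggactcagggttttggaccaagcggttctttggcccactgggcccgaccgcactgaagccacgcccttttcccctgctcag
Lass3 (chr7:66743254-66743503, plus strand): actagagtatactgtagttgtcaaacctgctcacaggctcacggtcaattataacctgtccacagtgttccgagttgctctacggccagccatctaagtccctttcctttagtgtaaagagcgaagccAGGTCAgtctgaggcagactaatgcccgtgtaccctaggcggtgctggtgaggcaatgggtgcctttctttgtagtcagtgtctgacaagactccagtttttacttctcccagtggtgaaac
Elovl4 (chr9:83806306-83806555, minus strand): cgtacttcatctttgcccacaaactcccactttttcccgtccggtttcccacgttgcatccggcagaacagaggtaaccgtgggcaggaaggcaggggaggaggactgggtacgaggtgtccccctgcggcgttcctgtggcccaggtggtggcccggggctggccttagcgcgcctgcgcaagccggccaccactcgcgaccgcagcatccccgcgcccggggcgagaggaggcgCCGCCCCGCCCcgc
Abca12 (chr1:71414911-71415160, minus strand): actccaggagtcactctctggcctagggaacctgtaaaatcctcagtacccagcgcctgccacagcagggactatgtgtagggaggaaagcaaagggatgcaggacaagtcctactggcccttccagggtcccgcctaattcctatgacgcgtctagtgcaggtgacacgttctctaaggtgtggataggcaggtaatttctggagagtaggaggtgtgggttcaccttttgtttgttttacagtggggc
All 10 genes matched a promoter entry, under their current symbols. The GC box was present in 6 of the 10 windows, against 32.7% of the 32851 promoter windows of the same length in the table. In *Elovl4* its 2 matches overlapped each other, and *Degs2* held 5 matches. The half-site was present only in *Lass3*, against 14.0% of all windows. CCAAT was present in *Lass2* and *Lass6* (33.9% of all windows), and neither TATAAA (12.4% of all windows) nor the AP-1 letters TGANTCA (6.75% of all windows) was present in any of the 10. The GC content was 49.6% for *Lass3* and 53.2% for *Abca12*, and 61.6% to 80.4% for the other 8 genes, against a median of 52.4% over all windows. These are letter matches and not sites shown to be bound.

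The levels spanned a wide range. By the mean over the 7 papillomas the order was *Elovl4* (220 FPKM), *Lass3* (109.6), *Ugcg* (82.9), *Degs2* (48.4), *Abca12* (44.6), *Acer1* (14.3), *Lass2* (13.6), *Lass5* (9.71), *Lass4* (5.94) and *Lass6* (1.38 FPKM). FPKM is scaled for length, so these levels can be set side by side. Of the 9 neighbouring pairs in this order, 6 differed in an exact two-sided sign-flip test over papillomas, with adjusted p of 0.0352 or 0.0469 over the 9 pairs; the smallest unadjusted p this design allows is 0.0156. *Degs2* and *Abca12* (adjusted p = 0.809, exact test), *Acer1* and *Lass2* (adjusted p = 0.938, exact test), and *Lass5* and *Lass4* (adjusted p = 0.0603, exact test) did not pass an adjusted p of 0.05. The test pools the genotypes. *Lass5* and *Lass4* read 8.51 to 11.3 and 6.38 to 10.9 FPKM in CTR papillomas, and 7.54 to 10.2 and 1.29 to 4.88 FPKM in TG papillomas. *Elovl4* lay above *Lass3* in 7 of 7 papillomas, and *Lass3* above *Ugcg* in 6 of 7. The most abundant transcripts of the group were thus those for elongation to very long chains, for the synthase that uses them, and for glucosylation.

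**Figure D1:**
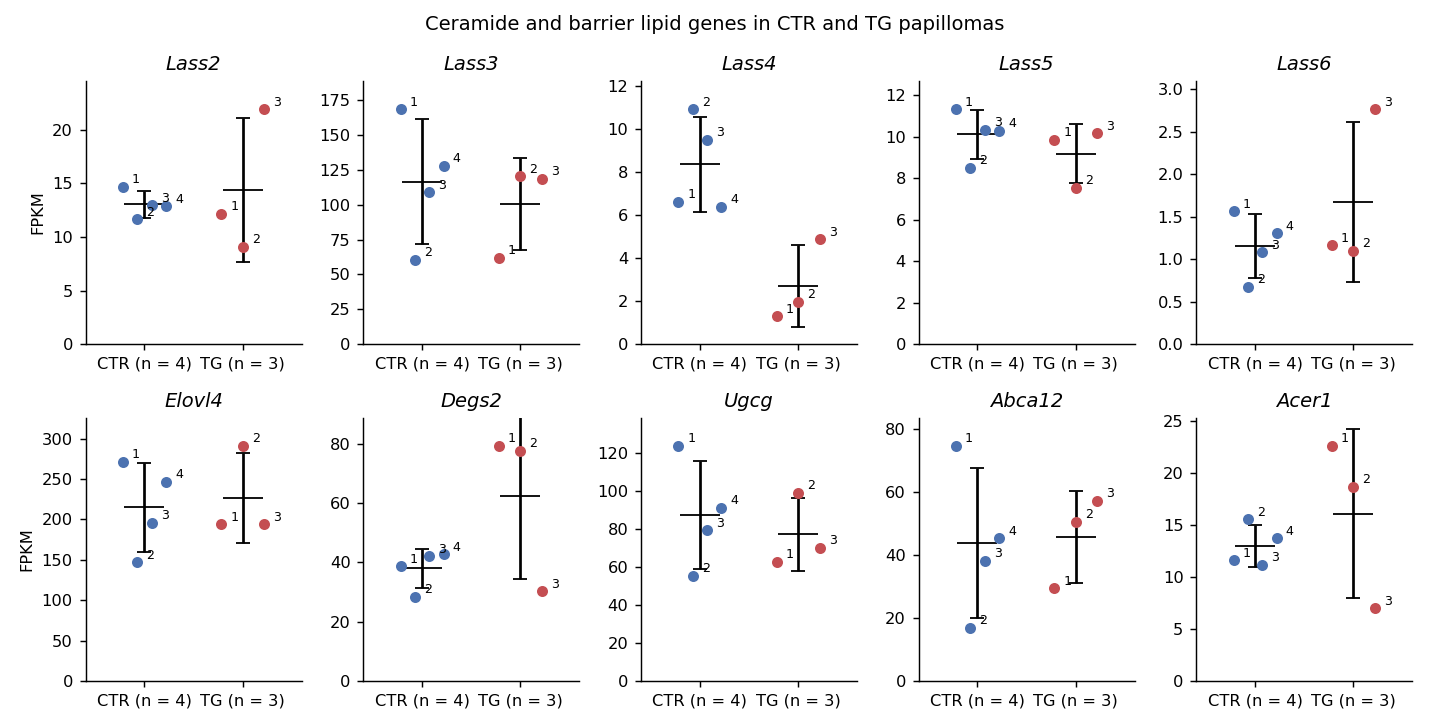
FPKM (vertical axes, starting at 0) of the 10 genes in 4 CTR (blue) and 3 TG (red) papillomas. Points are papillomas with their replicate number, and the black lines are the mean and SD. In *Lass4* all TG points lie below all CTR points, and in *Degs2* and *Acer1* TG 1 and TG 2 lie above and TG 3 low.

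Across the group, TG and CTR papillomas differed little. A higher mean log2 level in TG was seen in 6 of the 10 genes, where 60.0% of all 12299 genes tested were higher in TG. The median difference was 0.07 on the log2(FPKM + 0.5) scale, against 0.06 over all genes tested. The median absolute difference was 0.17 for the 10 genes and 0.18 over all genes. No gene passed an adjusted p of 0.05 in limma (0% of the genes tested). *Nanog* itself, whose groups did not overlap, was among the genes that did not pass. The paper's own test on these papillomas reported genes higher in TG at a false discovery rate under 0.05, *Nanog* among them. The lack of calls here is therefore not evidence that genes did not differ. The paper's test is also unlike limma on FPKM values, and its list includes muscle genes that were high here in TG 3 alone. *Ckm*, for example, read 92.5 FPKM in TG 3 and 0.486 FPKM or less in every other papilloma. At an unadjusted p under 0.05 in limma, 598 genes were higher (4.86%) and 241 lower (1.96%). Quantile normalization turned that split to 391 higher and 562 lower, and without TG 3 the adjusted threshold was passed by 9 genes higher and 8 lower. *Lass4* was the only gene of the 10 whose groups did not overlap, with TG below CTR, as in 2.23% of all genes tested, and none had TG above CTR, as in 4.93%. Upper-quartile scaling and quantile normalization kept the sign of all 10 differences, although quantile normalization moved the median over all genes to -0.04. Leaving out CTR 2 left 3 of the 10 higher in TG, and leaving out TG 3 left 5.

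**Figure D2:**
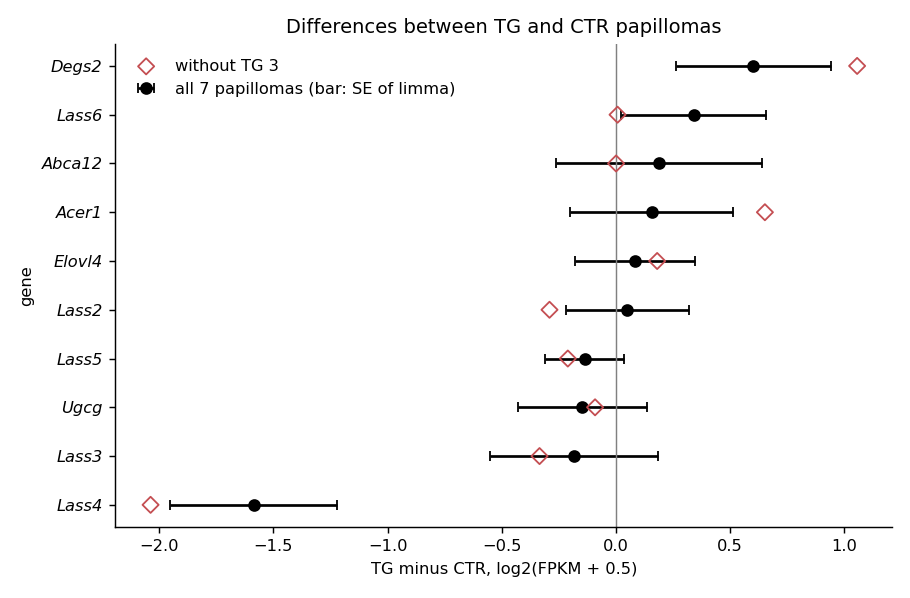
Difference between TG and CTR papillomas on the log2(FPKM + 0.5) scale (horizontal axis) for the 10 genes, ordered by size. Black points with bars are the difference and its SE over 7 papillomas, and open diamonds the difference without TG 3. *Lass4* lies at -1.59, and *Degs2* moves from 0.60 to 1.06 without TG 3.

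The 5 ceramide synthases differ in the fatty acids they prefer. *Lass4* encodes a synthase for long to very long chains and is known from sebaceous glands and hair follicles of the skin. It lies on chromosome 8 (chr8:4493405-4526079, plus strand) and its promoter is the first of those printed above. GENCODE starts this gene earlier, at 4493026, so the printed window lies inside the GENCODE gene. *Lass4* read 6.60, 10.9, 9.51 and 6.38 FPKM in CTR 1 to CTR 4 and 1.29, 1.97 and 4.88 FPKM in TG 1 to TG 3. Every TG papilloma lay below every CTR papilloma, and TG 3 came closest. The Cufflinks 95% interval of TG 3 reached up to 5.41 FPKM and that of CTR 4, the lowest control, down to 5.79 FPKM. These intervals cover the counting error of single libraries and not the spread between mice. The group means were 8.35 ± 2.23 (SD, n = 4) and 2.72 ± 1.91 (SD, n = 3) FPKM, a ratio of 0.325. On the log2 scale the difference was -1.59 (SE 0.37), and -2.04 without TG 3. It kept its sign in 21 of 21 alternative settings, between -2.04 and -1.17. Because the groups did not overlap, leaving out a papilloma or changing the pseudocount could not turn this sign. *Lass4* shares exonic bases with *Gm36956* on the opposite strand, and whether the authors used strand in counting is not given in the sources used here. Summed sebocyte markers ranged from 26.1 to 50.4 FPKM in CTR papillomas and from 36.8 to 100.1 in TG papillomas, and hair follicle markers from 11.1 to 30.9 and from 10.5 to 74.7. The highest value of both sums was TG 3. In every papilloma *Fasn*, *Cidea* and *Scd1* made up most of the sebocyte sum, and *Krt15* most of the hair follicle sum. The sebocyte markers *Awat1*, *Awat2*, *Mc5r* and *Dgat2l6* stayed under 1 FPKM in each. The sebocyte markers differed among themselves. In TG 1 and TG 2, *Awat2* and *Far2* lay below all controls, at levels under 1 FPKM. Of the 10 sebocyte markers, 2, *Awat1* and *Scd1*, lay above all controls in every TG papilloma. *Awat1* read 0.090 FPKM or less in CTR and 0.150 to 0.767 FPKM in TG papillomas. *Scd1* read 3.11 to 8.05 FPKM in CTR and 8.07 to 41.6 FPKM in TG papillomas. The part of sebocytes and hair follicle cells in the *Lass4* difference was not tested.

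*Lass3* encodes the synthase of the epidermis and testis, which uses ultra-long acyl chains and is needed for the water barrier. It lies at chr7:66743504-66823692 on the plus strand, with the promoter printed above that holds the half-site. Its level was 168.5, 60.7, 108.9 and 127.8 FPKM in the CTR papillomas and 62.1, 120.5 and 118.5 FPKM in the TG papillomas. The highest and the lowest value, CTR 1 and CTR 2, both belonged to the controls, and the TG values lay between them. The difference was -0.18 (SE 0.37) and changed sign without CTR 1, without TG 1 and among the lower-depth papillomas alone.

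*Lass2*, a broadly expressed synthase for very long chains (chr3:95315252-95323568, plus strand), read 14.7, 11.6, 13.0 and 12.9 FPKM in CTR papillomas. Its TG values were 12.2, 9.09 and 21.9 FPKM. TG 3 was the highest of the 7 and TG 2 the lowest, and the log2 difference went from 0.05 (SE 0.27) to -0.29 without TG 3. The locus shares exonic bases with *Setdb1* on the opposite strand. *Lass6*, a synthase for long chains (chr2:68861557-69111290, plus strand), was the least abundant, at 1.57, 0.678, 1.08 and 1.31 FPKM in CTR and 1.16, 1.10 and 2.77 FPKM in TG papillomas. TG 3 was again the highest, above every other papilloma, and the difference of 0.34 (SE 0.32) became 0.01 without it. Fibroblast and muscle markers, given above, were highest in the same papilloma, and their part in these values was not tested. *Lass5*, also a synthase for long chains (chr15:99735592-99772515, minus strand), was the steadiest of the 10, with 8.51 to 11.3 FPKM in CTR and 7.54 to 10.2 FPKM in TG papillomas. Its highest value was 1.50 times its lowest, and the difference was -0.14 (SE 0.17).

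As a share of the summed FPKM of the 5 synthases, *Lass3* made up 65.7% to 85.9% in every papilloma. Its mean share was 76.4% ± 7.71 (SD, n = 4) in CTR and 77.5% ± 7.46 (SD, n = 3) in TG papillomas. The share of *Lass4* was 3.26%, 11.8%, 6.66% and 4.02% in CTR 1 to CTR 4 and 1.49%, 1.41% and 3.09% in TG 1 to TG 3. Its groups did not overlap, and the gap between CTR 1 and TG 3 was narrow. *Lass2* made up 6.49% to 14.0%, *Lass5* 5.38% to 11.4% and *Lass6* 0.734% to 1.75%, each with overlapping groups. The summed level of the 5 genes was lowest in TG 1 (86.6 FPKM) and CTR 2 (92.4 FPKM) and highest in CTR 1 (203 FPKM).

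**Figure D3:**
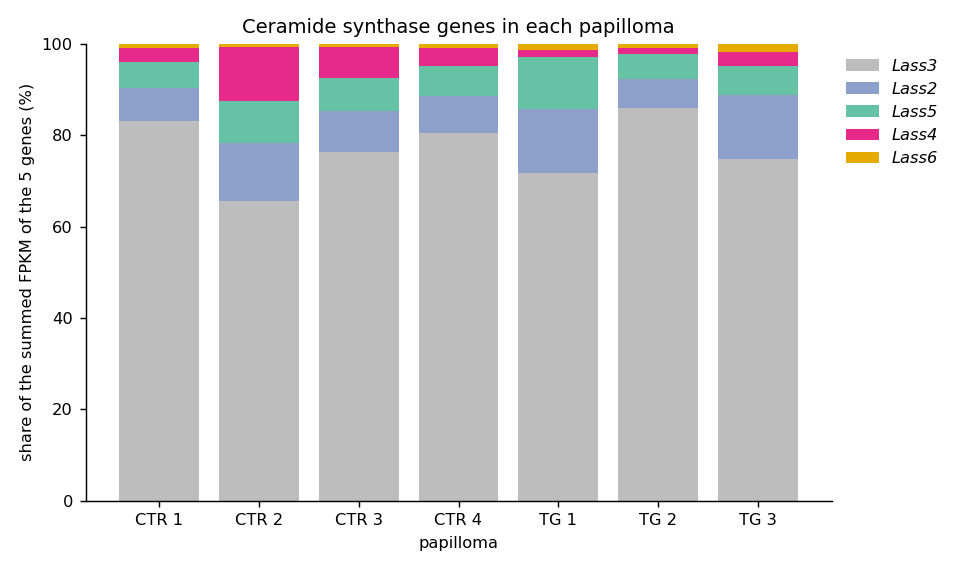
Share (percent, vertical axis from 0) of each of the 5 ceramide synthase genes in their summed FPKM, for each of the 7 papillomas. *Lass3* fills most of every bar, and the *Lass4* segment is between 1.41% and 3.09% in TG and between 3.26% and 11.8% in CTR papillomas.

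*Elovl4*, *Ugcg* and *Abca12* act beside *Lass3* on the route to the secreted barrier lipids. *Elovl4* (chr9:83778692-83806305, minus strand) encodes the elongase that makes ultra-long fatty acids, and read 271, 147, 196 and 246 FPKM in CTR and 194.0, 291 and 194.1 FPKM in TG papillomas. TG 2 was the highest and CTR 2 the lowest, with a difference of 0.08 (SE 0.26). *Ugcg* (chr4:59189550-59222833, plus strand) encodes the enzyme that adds glucose to ceramide for transport, and read 123, 55.2, 79.1 and 91.1 FPKM in CTR and 62.5, 98.8 and 70.0 FPKM in TG papillomas. All TG values lay inside the range of the controls, and the difference was -0.15 (SE 0.28). *Abca12* (chr1:71243090-71414910, minus strand) encodes the transporter that loads lipid into lamellar bodies, and read 74.6, 16.9, 38.2 and 45.3 FPKM in CTR and 29.4, 50.5 and 57.2 FPKM in TG papillomas. Its highest value, in CTR 1, was 4.41 times its lowest, in CTR 2, and the TG papillomas again lay between them. Its difference was 0.19 (SE 0.45), with 0.00 without TG 3 and -0.20 without CTR 2.

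Among *Lass3*, *Elovl4*, *Ugcg* and *Abca12*, CTR 2 was the lowest of the 7 in all 4 genes, and CTR 1 was the highest in all of them but *Elovl4*. This was not particular to the 4 genes. CTR 2 was also lowest in *Lass6* and *Degs2*, and CTR 1 highest in *Lass5*. Some other genes of the pathway, such as *Sptlc1* and *Elovl1*, were likewise highest in CTR 1 and lowest in CTR 2, while many were not. Correlations were computed after the values had been seen, over all 45 pairs of the 10 genes and on the log2(FPKM + 0.5) scale, with exact permutation over the 5040 orderings of 7 papillomas. Of the 45 pairs, 27 had a positive Pearson correlation, 9 had an unadjusted p under 0.05 and 0 had an adjusted p under 0.05. *Lass3* and *Abca12* had r = 0.92 (exact permutation p = 0.00179, adjusted p = 0.0804) and Spearman's rho = 0.86 (exact permutation p = 0.0238, adjusted p = 0.214), with r = 0.85 without the 2 papillomas farthest from the median of *Lass3*. *Lass3* and *Ugcg* had r = 0.90 (exact permutation p = 0.00357, adjusted p = 0.0804) and rho = 0.93 (exact permutation p = 0.00675, adjusted p = 0.152), with r = 0.84 without the same 2 papillomas. *Elovl4* and *Ugcg* had r = 0.92 (exact permutation p = 0.00615, adjusted p = 0.0923) and rho = 0.96 (exact permutation p = 0.00278, adjusted p = 0.125), with r = 0.91 without the 2 farthest. The other 3 pairs among these genes had r between 0.78 and 0.84 (exact permutation p = 0.0167 to 0.0315, adjusted p = 0.177) and rho between 0.71 and 0.86 (exact permutation p = 0.0238 to 0.0881, adjusted p = 0.214 to 0.360). Without the 2 farthest papillomas r was 0.50 for *Ugcg* and *Abca12*, 0.57 for *Lass3* and *Elovl4*, and 0.77 for *Elovl4* and *Abca12*. Without TG 3, 4 of the 45 pairs passed an adjusted p of 0.05 by exact permutation: *Lass3* with *Ugcg* (r = 0.97) and with *Abca12* (r = 0.93), *Ugcg* with *Abca12* (r = 0.97), and *Lass2* with *Lass5* (r = 0.96). The papillomas pool both genotypes, and correlations within a genotype, with 4 and 3 papillomas, were not computed.

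**Figure D4:**
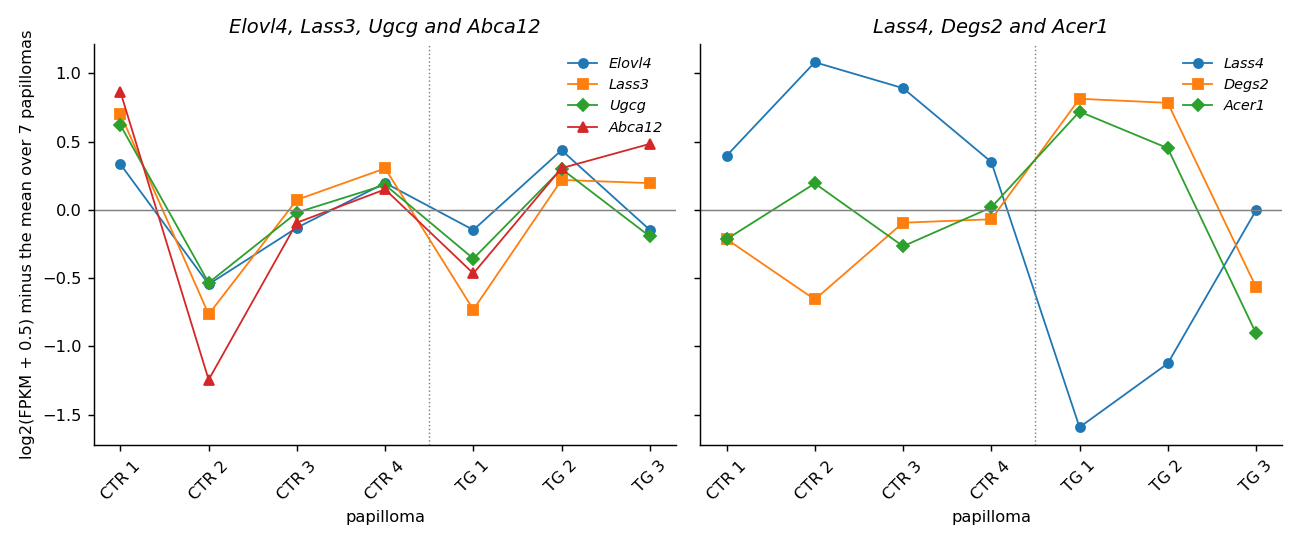
Level of each gene in the 7 papillomas relative to its own mean, on the log2(FPKM + 0.5) scale (vertical axis); lines join the papillomas of a gene for reading only, and the dotted line parts CTR from TG. Left, *Elovl4*, *Lass3*, *Ugcg* and *Abca12* are lowest together in CTR 2; right, *Lass4* is lowest in TG 1 and TG 2, where *Degs2* and *Acer1* are highest.

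*Degs2* and *Acer1* were both highest in TG 1 and TG 2. *Degs2* (chr12:108686792-108702306, minus strand) encodes the enzyme that hydroxylates sphingoid bases to make phytoceramides. It read 38.6, 28.3, 42.0 and 42.8 FPKM in CTR papillomas and 79.3, 77.6 and 30.2 FPKM in TG papillomas. TG 1 and TG 2 lay above all controls, whereas TG 3 lay below all controls but CTR 2. The difference was 0.60 (SE 0.34) on the log2 scale and 1.06 without TG 3, and it kept its sign in 21 of 21 alternatives. *Degs2* shares exonic bases with *Evl* on the opposite strand. *Acer1* (chr17:56953490-56982126, minus strand), which encodes the alkaline ceramidase of the epidermis, read 11.6, 15.5, 11.2 and 13.7 FPKM in CTR and 22.6, 18.7 and 7.002 FPKM in TG papillomas. TG 1 and TG 2 again held the highest values and TG 3 the lowest of all 7. Its difference was 0.16 (SE 0.36), 0.65 without TG 3, and it turned negative without TG 1, without TG 2 and among the lower-depth papillomas. *Acer1* shares exonic bases with *AC073683.1* on the opposite strand. *Degs2* and *Acer1* had r = 0.74 over the 7 papillomas (exact permutation p = 0.0552, adjusted p = 0.248; rho = 0.61, exact permutation p = 0.167, adjusted p = 0.536), and 0.17 without TG 1 and TG 2, so that the relation rests on them. *Lass4* and *Degs2* had r = -0.87 (exact permutation p = 0.0268, adjusted p = 0.177; rho = -0.75, exact permutation p = 0.0663, adjusted p = 0.331), and -0.07 without the same papillomas. These genes had the largest differences between the groups among the 10. The permutation pools both genotypes, so this p is not separate from those differences.

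Markers of differentiated keratinocytes are given beside *Degs2* and *Acer1*. The sum over the 9 measured markers was 9557, 8729.9, 11872 and 7571 FPKM in CTR 1 to CTR 4 and 12583, 12431 and 4510.2 FPKM in TG 1 to TG 3. This sum was highest in TG 1 and TG 2 and lowest in TG 3, but its markers differed among themselves. TG 1 and TG 2 both lay above all controls in 5 of the 9 (*Krt1*, *Krt10*, *Ivl*, *Dsg1a* and *Kprp*), and TG 3 lay below all controls in 4 (*Krt1*, *Krt10*, *Lor* and *Krtdap*) and above them in *Ivl* and *Kprp*. *Krt1* and *Krt10*, the keratin pair of the suprabasal layers, were the only markers with both features, and all of these were named after their values were seen. *Krt10* read 917 to 1440.3 FPKM in CTR papillomas and 3150.1, 3133 and 181 FPKM in TG 1 to TG 3. *Krtdap*, the most abundant of these markers, read 4770.1 and 3666 FPKM in TG 1 and TG 2 and 2689 FPKM in TG 3, so that TG 1 lay inside the range of the controls and TG 2 and TG 3 below it. The part of differentiated cells in the values of *Degs2* and *Acer1* was not tested.

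The remaining pathway was read from a list of 72 other genes of ceramide and barrier lipid metabolism. Of these, 70 were in the files and 65 were tested, and 48 of the 65 (median difference 0.20) had the higher mean log2 level in TG, against 60.0% of all genes tested (median 0.06). After quantile normalization 46 of the 65 were higher (median 0.11), against 5406 of 12281 genes (median -0.04). Without TG 3, 40 of 62 were higher (median 0.19), against 5494 of 11990 genes (median -0.03). None passed an adjusted p of 0.05 in either direction (smallest adjusted p = 0.564 from limma, over all genes tested). At an unadjusted p under 0.05, 6 of the 65 were higher and 2 lower in TG, where 4.86% and 1.96% of all genes tested were, and the counts were 3 and 2 without CTR 3. In 7 of the 65 every TG papilloma lay above every CTR papilloma, against 4.93% of all genes tested, and in 2 every TG papilloma lay below, against 2.23%.

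The counts and medians by role include TG 3 and were not computed without it. By role, the genes of sphingoid base synthesis had a median difference of 0.15, with 8 of 10 higher in TG. *Degs1*, the desaturase that completes ceramide synthesis and the most abundant of them, read 126 ± 19.0 (SD, n = 4) FPKM in CTR and 131 ± 31.4 (SD, n = 3) FPKM in TG papillomas. Fatty acid elongation and activation had 14 of 16 genes higher and a median of 0.21. *Elovl1*, an elongase for very long chains, led this role by level, at 178 ± 45.7 (SD, n = 4) and 151 ± 30.6 (SD, n = 3) FPKM. *Elovl5*, which elongates polyunsaturated fatty acids, read 3.29 to 5.13 FPKM in CTR and 5.22 to 9.09 FPKM in TG papillomas, without overlap. *Ptpla*, a dehydratase of the elongation cycle, read 0.785 to 2.17 and 2.72 to 4.41 FPKM, and *Acsl1*, which activates fatty acids with coenzyme A, 14.7 to 18.2 and 20.6 to 29.4 FPKM. Their log2 differences were 0.63, 0.95 and 0.50, with adjusted p from limma of 0.687, 0.608 and 0.687.

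The acylceramide and lipid envelope genes were the only role with a median below 0 (-0.08), with 5 of 12 higher in TG. *Alox12b*, the lipoxygenase that oxidizes acylceramides, was its most abundant gene, at 267 ± 60.4 (SD, n = 4) and 230 ± 19.5 (SD, n = 3) FPKM. Among the enzymes that turn ceramide into sphingomyelin and other products, 7 of 9 genes were higher, with a median of 0.40. Of these, *Sgms2* and *B4galt5* read 2.60 and 1.72 FPKM in TG 3 and passed the filter only with it. Without TG 3 the differences of the other genes were -0.03 (*Sgms1*), 0.10 (*Samd8*), 0.29 (*Col4a3bp*), 0.33 (*Plekha8*), 0.46 (*Cerk*), -0.59 (*B4galt6*) and -2.51 (*Ugt8a*). *Cerk*, ceramide kinase, was the most abundant gene of this role. Its groups did not overlap, at 7.14 to 9.09 FPKM in CTR and 10.7 to 12.6 FPKM in TG papillomas (log2 difference 0.49, adjusted p = 0.653 from limma).

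The role headed lamellar body processing, which also holds genes that act elsewhere in the cell, had 6 of 8 genes higher and a median of 0.17. *Sult2b1*, which makes cholesterol sulfate, was the most abundant gene of the whole list and was lower in every TG papilloma. It read 431, 338, 592 and 444 FPKM in CTR 1 to CTR 4 and 207, 237 and 281 FPKM in TG 1 to TG 3. The groups did not overlap, and the difference was -0.88 (SE 0.23), with an adjusted p of 0.564 from limma over all genes tested. Of the ceramidases and the enzymes of sphingosine phosphate, 8 of 10 were higher, with a median of 0.35. *Sgpp2*, a sphingosine phosphate phosphatase and the most abundant of these, read 59.5, 39.6, 42.3 and 32.5 FPKM in CTR and 24.6, 27.6 and 27.7 FPKM in TG papillomas. All TG values lay below the controls (difference -0.66, adjusted p = 0.653 from limma). *Asah1*, the lysosomal acid ceramidase, read 5.25 to 12.1 FPKM in CTR and 12.4 to 25.7 FPKM in TG papillomas, with TG 3 far above the others (difference 0.81, and 0.49 without TG 3, adjusted p = 0.713 from limma over all 7). *Sgpl1*, the sphingosine phosphate lyase, read 16.8 to 24.6 and 22.4 to 29.1 FPKM, with overlap (difference 0.41, adjusted p = 0.732 from limma). The differences of *Sult2b1*, *Sgpp2* and the 6 genes that were higher kept their sign in 21 of 21 alternatives. These genes were named for an unadjusted p under 0.05 in limma on the same values, so the kept signs are no separate support. Where the groups did not overlap, leaving out a papilloma or changing the pseudocount could not turn the sign.

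**Figure D5:**
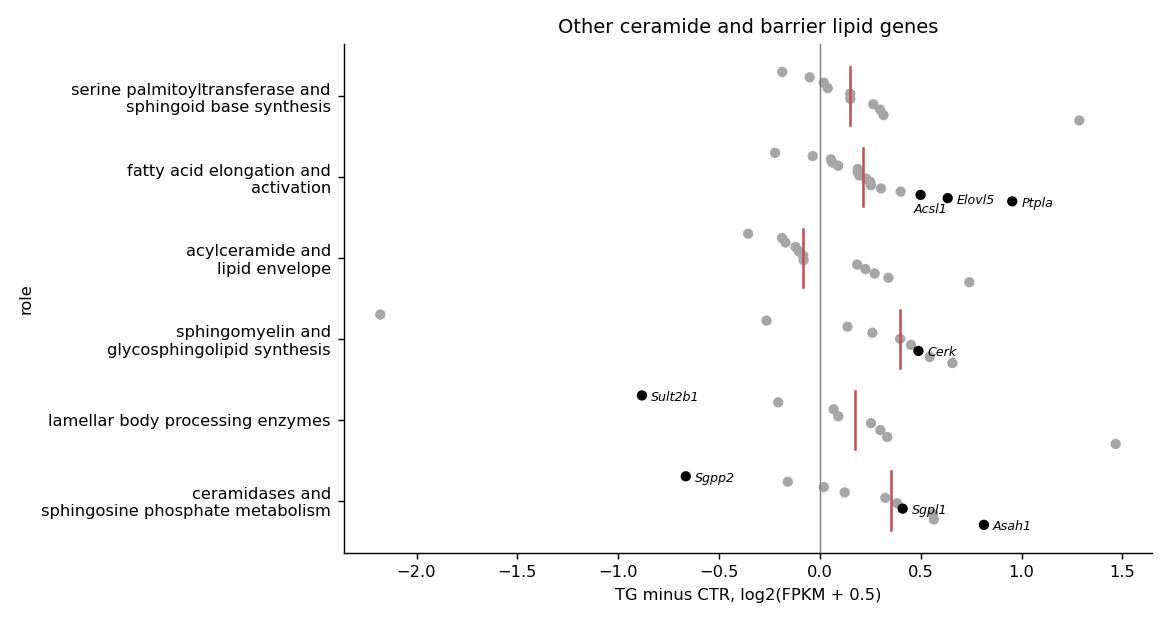
Difference between TG and CTR papillomas on the log2(FPKM + 0.5) scale (horizontal axis) for the 65 tested genes of the pathway list, in rows by role. Black points have an unadjusted p under 0.05 in limma, grey points do not, and red lines are the median of the role. 6 named genes lie above 0 and *Sult2b1* and *Sgpp2* below, and none passed the adjusted threshold.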

How the data were processed

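Poly(A)+ RNA of 7 papillomas, 1 for each mouse, was sequenced from stranded libraries in single reads. Per the submitters' processing notes, reads were handled with FastQC, TopHat2 2.0.4, Bowtie 0.12.7, SAMtools 0.1.16 and Cufflinks 1.3.0 on GRCm38 (mm10). The authors deposited FPKM values for genes, with confidence intervals and a status, separately for each papilloma. FPKM corrects for length and library size but not for composition, so a very abundant class of transcripts can shift the others. Depth was inferred from the intervals, which cover counting error only.

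Entries of a symbol were summed (240 symbols), and 162 symbols with a failed estimate were left out. Genes that averaged 0.5 FPKM or more across the 7 papillomas were fitted on log2(FPKM + 0.5) with limma 3.58.1 in R 4.3.3 (moderated variances with a trend, two-sided, Benjamini-Hochberg over all 12299 genes), a step tested on simulated data. The study's own test, Cuffdiff, needs aligned reads and was not run. Exact permutation and sign-flip tests used scipy 1.17.1, numpy 2.4.6 and pandas 2.3.3 in Python 3.11.15. Log2 differences understate those of low genes because of the pseudocount. The alternatives were other pseudocounts (0.1 and 1), filters (none and 2 FPKM), scalings, moderation, weights, a replicate block, a depth covariate, the lower-depth papillomas alone, other handling of entries and statuses, and each papilloma left out. Groups and replicate numbers came from the labels.

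The 10 genes, the pathway and marker lists and the tests were chosen with earlier results of these data known. Named were *Nanog*, the 10 genes, in each pathway role the gene with the highest mean FPKM and those with an unadjusted p under 0.05, and the highest gene of each marker list. Of the lists, 3 genes were not found under any of their symbols. Exons were compared with GENCODE on GRCm38, and promoter sequences are those of RefSeq on GRCm38.p6. Loci are those of the files, 1-based.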

Additional observations from a re-analysis of the deposited data

Results flagged for a closer look

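*Nanog* stood at 12.7 FPKM in CTR 3, far from the other CTR papillomas at 2.70, 2.84 and 3.34 FPKM. Its gap to the nearest of them was 0.871 of the range of the group, above Dixon's 95% critical value for 4 samples. This was 1 of 22 groups examined, and chance flags about 1 in 20 groups. In CTR 3, *Lass4* was at 9.51 FPKM and *Degs2* at 42.0 FPKM, both inside the range of the other CTR papillomas.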

How the results depend on the processing

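Of the 10 genes, *Lass4*, *Lass5* and *Degs2* kept the sign of their difference in all 21 alternatives, and the other 7 lost it in at least 1. For *Lass4*, whose groups did not overlap, no left-out papilloma could have turned it. The number of the 10 higher in TG was 3 without CTR 2 and up to 8 without other papillomas (6 with all), with a median difference of -0.14 without CTR 2. Counts over all genes moved more. No gene passed the adjusted threshold in either direction with all papillomas and equal weights, but sample quality weights called 49 higher and 36 lower, the lower-depth papillomas alone called 1 higher, and leaving out single papillomas called 0 to 9 higher and 0 to 8 lower, with 9 and 8 reached without TG 3. Before adjustment, at 0.05, the counts were 598 higher and 241 lower. The former was 954 with no filter on low values, 391 after quantile normalization, 1161 with weights, and 364 (without CTR 3) to 824 without single papillomas. The latter was 562 after quantile normalization, 1248 with weights, and 121 (without TG 2) to 522 (without TG 3) without single papillomas. Quantile normalization thus turned the balance from mostly higher to mostly lower genes. Of the pathway genes, 6 were higher and 2 lower at that level. Weights gave 18 and 4, the lower-depth papillomas 1 and 1, and single papillomas left out 3 to 9 higher (3 without CTR 3) and 2 to 3 lower. The correlated pairs among the 10 genes numbered 0 with all papillomas and 4 without TG 3, and the cause of these shifts was not tested.

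Replicate numbers shared by the labels showed no sign of pairing the papillomas. The same-numbered pairs correlated at -0.19, 0.04 and -0.15 in their deviations from the group means, and CTR 4 had no partner. Pairs with different numbers correlated between -0.22 and 0.31. So few pairs cannot settle whether papillomas of the same number shared a batch. With the replicate block, 505 genes were higher and 170 lower at an unadjusted p under 0.05, and 0 in either direction after adjustment.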

Other observations

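Some genes of the pathway list outside the naming rule had uneven values, and they are named here after their values were seen. *Pla2g2f*, a secreted phospholipase of the epidermis, read 1.80, 7.43, 9.44 and 13.5 FPKM in CTR 1 to CTR 4 and 36.3, 44.7 and 4.03 FPKM in TG 1 to TG 3. *Lipn*, an epidermal lipase, read 2.85, 2.03, 2.16 and 3.13 FPKM in CTR and 6.67, 9.95 and 1.20 FPKM in TG papillomas. As in *Degs2* and *Acer1*, TG 1 and TG 2 lay above all controls and TG 3 did not, and the adjusted p from limma was 0.826 and 0.846.

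*Ugt8a*, which makes galactosylceramide, read 0.284, 20.6, 4.24 and 0.573 FPKM in CTR papillomas and was listed at 0, 0.067 and 0.555 FPKM in TG papillomas. CTR 2, the control with the highest *Lass4* level, was also the control with the highest *Ugt8a* level. *Fa2h*, the fatty acid 2-hydroxylase and a gene that the study selected on these same papillomas, read 6.87 FPKM in TG 3 and 0.280 FPKM or less in each of the other 6.

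Levels of the remaining marker lists are given as sums over their measured genes. Basal keratinocyte markers, led by *Krt14*, summed to 6632 to 9899 FPKM in CTR and 6846 to 12954 FPKM in TG papillomas. Markers of hyperplastic keratinocytes, led by *Krt6b*, summed to 20940.2 to 25421 and 18689 to 32706 FPKM. The adipocyte list, nearly all *Fabp4*, summed to 1374 to 3228 and 1545 to 2269 FPKM. Leukocyte markers, led by *Cd68*, summed to 20.0 to 25.1 and 20.5 to 43.9 FPKM, endothelial markers, led by *Pecam1*, to 6.70 to 12.4 and 9.82 to 25.8 FPKM, and proliferation genes, led by *Birc5*, to 77.2 to 146 and 66.9 to 92.7 FPKM. The most abundant markers of the lists given in the report were *Fasn* (sebocyte), *Krt15* (hair follicle), *Col1a2* (fibroblast) and *Acta1* (skeletal muscle). No marker list held a gene that passed the adjusted threshold in limma. Of the 10 cell type lists, 4 or more genes were highest in TG 3 in 7.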
